A study of Mus musculus with 9 samples.

Results

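The 32 genes described here encode enzymes that make purine and pyrimidine nucleotides, serine and folate-bound carbon units, and polyamines. They were taken by symbol from a list drawn up with earlier results of these data known, and all were found among the 19769 genes of the RNA-seq table. By role, 13 belong to purine synthesis and salvage, 6 to pyrimidine synthesis, 2 are nucleoside diphosphate kinases, 8 serve serine and folate metabolism and 3 make polyamines. Their RNA was measured in primary mouse embryonic fibroblasts (MEFs, embryo stage per the labels) homozygous for a fusion of Myc to Egfp, as a low-MYC and a high-MYC group. Both groups had been exposed to 20 µM MG-132, a proteasome inhibitor that raises the MYC-GFP signal, for 6 h before they were sorted by GFP brightness, and both were seeded overnight after the sort. Each group has 2 libraries, which are technical replicates, so every test below compares these libraries and not independent cultures. TACh-seq, which maps nuclease-accessible chromatin, was analysed as a single table of reads without library names. The labels of both WT and KOKD MEFs (Fubp1 knockout with Fubp2 knockdown) point to this table, while its own name points to a WT replicate, so which libraries the reads come from is not known. FUBP1 ChIP-seq was a peak list from 1 sample of MEFs.

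Cells build purines stepwise on phosphoribosyl pyrophosphate (PRPP), which also receives the pyrimidine ring, and they recover free bases by salvage. Serine supplies carbon units to tetrahydrofolate, partly in mitochondria, and the purine ring and thymidylate are built with them, while polyamines are made from ornithine and bind nucleic acids. MYC, a transcription factor of the E-box binding class, is known to bind many genes of these pathways, Odc1 and Cad among the classical examples.

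Per the methods, RNA was measured as spike-in-normalized FPK, which is fragments per kilobase of transcript divided by the signal of ERCC transcripts. These were added according to the number of cells, so a value is a level per cell and per length. Whether the length used leaves out introns was not tested. Levels, ranks and ratios between genes therefore hold only for the length used, while comparisons of 1 gene between groups do not depend on it. The sum over all genes was 46321 and 48291 in the low-MYC libraries and 102850 and 109090 in the high-MYC libraries, a ratio of mean totals of 2.24. The step between low values gave the high-MYC libraries 0.987 and 0.93 times as many reads as low-MYC replicate 1, and low-MYC replicate 2 1.04 times as many. Myc itself stood at 9.81 and 9.86 in low-MYC cells and at 20.3 and 20.5 in high-MYC cells, a ratio of 2.07, although the sort was on the protein. This ratio is below that of the totals. Its share of the column total was 212 and 204 parts per 1000000 in low-MYC libraries and 197 and 188 in high-MYC libraries, a difference of −7.43%. All 15 fibroblast markers were measured above the minimum, and together they made up 9427 to 9659 ppm (parts per 1000000 of the column total) in low-MYC libraries and 10340 to 10610 ppm in high-MYC libraries. The 25 macrophage markers together made up 21.5 and 28.2 ppm in low-MYC libraries and 303.5 and 298.8 ppm in high-MYC libraries. Of these markers 13 passed the minimum mean of 0.1 used for testing, 11 of them only through their high-MYC values, so no test is read from them. In a bulk sample, fewer cells of a type and less RNA per cell cannot be told apart.

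Per cell, every one of the 32 genes was higher in high-MYC cells, by close to the same ratio as the transcriptome as a whole. On the scale log2(normalized FPK + 0.1) all 32 passed the test in this direction (limma with Benjamini-Hochberg adjustment over 11870 genes, largest adjusted p 0.000116 for Mthfd1l), as did 97.1% of all genes tested. The median log2 difference was 1.10 against 1.03 over all genes tested, and it ran from 0.61 for Mthfd1l, the mitochondrial formate-producing enzyme, to 1.34 for Srm, spermidine synthase. The value of Mthfd1l is small because its levels are near the added constant, and the ratio of its plain means was 2.32. At least 2-fold higher on that scale were 23 of the 32, against 55.1% of all genes tested. This count depends on the constant added before the logarithm, being 6 with a constant of 1 and 29 with a constant of 0.01. The ratio of plain group means ran from 1.86 for Psat1 to 2.59 for Prps2. All 32 passed the minimum mean of 0.1, but Mthfd1l was below it in both low-MYC libraries, at 0.0666 and 0.0685, and passed through its high-MYC values of 0.155 and 0.158. The filter therefore favoured its call as higher, and no result is read from its test.

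The levels of the 32 genes covered a wide range, and their order was similar in both groups. This order depends on the length by which each gene was divided, which was not checked. Nme2, a nucleoside diphosphate kinase, was the highest, with 21.2 and 22.2 normalized FPK in low-MYC libraries and 51.5 and 49.8 in high-MYC libraries. It ranked 282 among all genes in low-MYC cells and 275 in high-MYC cells. In high-MYC cells it was followed by Aprt (mean 36.5), Impdh2 (33.0), Odc1 (31.7), Srm (15.7), Shmt2 (14.7) and Paics (13.0). In low-MYC cells Odc1 (mean 15.8 ± 0.98 SD, n = 2) and Aprt (15.3 ± 0.14) stood in the opposite order, with both Aprt values between those of Odc1. Ctps2, at a high-MYC mean of 0.277, and Mthfd1l, at 0.156, were the lowest and ranked 10259 and 11629.

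**Figure D1:**
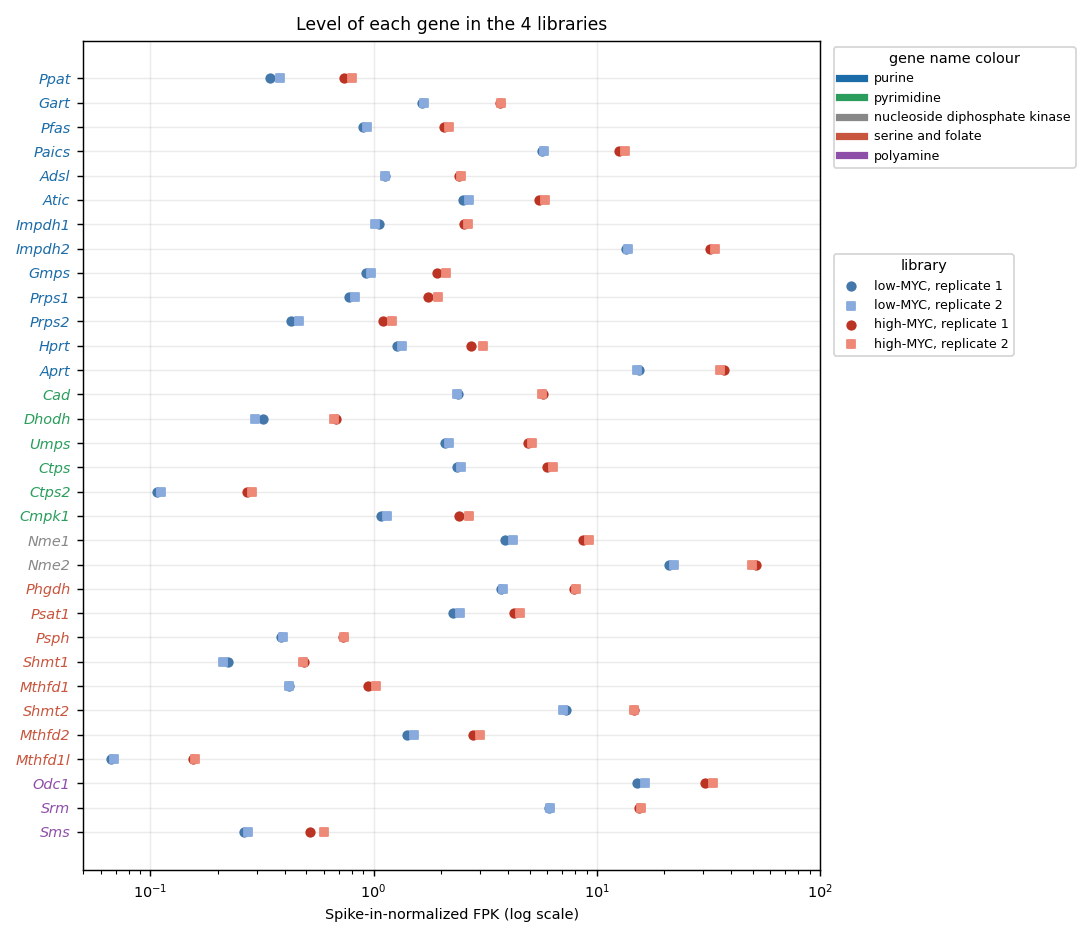
Spike-in-normalized FPK (horizontal, log scale) of each of the 32 genes (rows, name coloured by class) in the 2 low-MYC libraries (blue) and the 2 high-MYC libraries (red), each point 1 library. For every gene both high-MYC points lie to the right of both low-MYC points, from Mthfd1l at 0.0666 to 0.158 to Nme2 at 21.2 to 51.5. Of all 11870 genes tested, 11855 had a positive difference on log2(normalized FPK + 0.1).

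Since nearly all genes were higher per cell, each gene was also expressed as its share of the column total, in ppm, and compared as log2(share + 1). On this scale the 32 genes split evenly around 0, with 16 differences above it, 16 below it and a median of 0.003 against 0.009 over all genes tested. At an adjusted p under 0.01, 0 genes were higher, against 1.78% of all genes tested, and 0 were lower, against 0.531% (limma with Benjamini-Hochberg adjustment). An unadjusted p under 0.05 was reached by 6 higher and 4 lower genes, close to the 18.7% and 12.9% of all genes tested. At an adjusted p under 0.05 the higher genes were Ctps and Srm, 2 of 32 against 7.77% of all genes tested, and the lower genes were Psat1 and Psph, 2 of 32 against 3.89%. Leaving out any 1 of the 4 libraries took the adjusted p of these 4 genes above 0.05, to between 0.0751 (Psat1) and 0.22 (Srm), in fits where the lone library of a group is assumed to vary like the other group. Both high-MYC libraries were above both low-MYC libraries for 11 genes, against 33.9% of all genes tested, and below them for 10, against 28.4%. The 95% intervals of all 32 differences lay between −0.35, the lower bound for Psat1, and 0.30, the upper bound for Prps2.

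**Figure D2:**
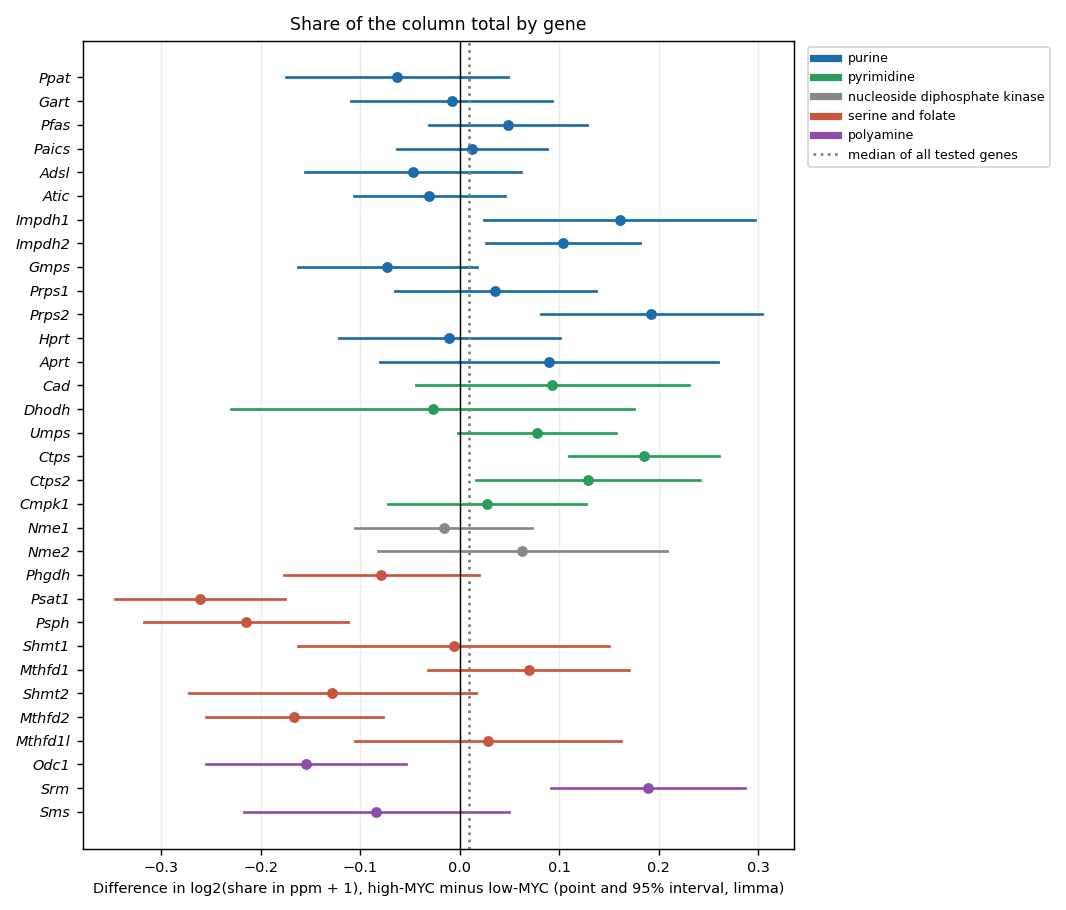
Difference in log2(share of the column total in ppm + 1) between high-MYC and low-MYC cells for each of the 32 genes, with the 95% interval from limma (n = 2 libraries per group) and the median of all genes tested as a dotted line. Pyrimidine genes sit mostly to the right of 0, up to 0.18 for Ctps, and serine genes to the left, down to −0.26 for Psat1.

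The 6 enzymes that assemble the purine ring took a summed share that differed by −0.301% between the groups, and their single values lay close to 0. Ppat, which commits PRPP to the pathway, stood at 0.344 and 0.379 normalized FPK in low-MYC cells and at 0.740 and 0.8004 in high-MYC cells. Paics, which joins carboxylation and ligation in a single protein, stood at 5.67, 5.82, 12.6 and 13.4 in the same order. The groups did not overlap for either gene on this scale, on which 11855 of all 11870 genes tested had a positive difference. As shares, Ppat changed by −0.06 (log2, 95% interval −0.17 to 0.05) and Paics by 0.01 (−0.06 to 0.09). Gart, which acts at several steps and uses formyl-tetrahydrofolate, changed by −0.01, Pfas, which uses glutamine to form an amidine, by 0.05, Adsl, the lyase shared with AMP synthesis, by −0.05, and Atic, which closes the ring to IMP, by −0.03. None of the 6 reached an unadjusted p of 0.05, and their summed share was 0.0263% and 0.0261% in low-MYC libraries and 0.0263% and 0.0260% in high-MYC libraries.

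The enzymes that lead from IMP to GMP had share differences on both sides of 0. Impdh2, the main IMP dehydrogenase in dividing cells, took 293 and 287 ppm in low-MYC libraries and 312 and 311 ppm in high-MYC libraries. Impdh1, its paralog, took 22.8 and 21.0 ppm and 24.8 and 24.4 ppm. Gmps, GMP synthase, took 19.9 and 20.1 ppm and then 18.7 and 19.3 ppm. Thus the groups did not overlap for any of the 3. Both dehydrogenases were higher, as were 33.9% of all genes tested, and the synthase was lower, as were 28.4%. The log2 differences were 0.10 for Impdh2 (adjusted p = 0.0951), 0.16 for Impdh1 (adjusted p = 0.119) and −0.07 for Gmps (adjusted p = 0.222), none past the threshold in limma with Benjamini-Hochberg adjustment.

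PRPP synthetase and the salvage enzymes completed the purine class. Prps2 took 9.18 and 9.63 ppm in low-MYC libraries and 10.7 and 11.1 ppm in high-MYC libraries, a log2 difference of 0.19 (95% interval 0.08 to 0.30, adjusted p = 0.0602, limma with Benjamini-Hochberg adjustment). Prps1, the other PRPP synthetase, differed by 0.04 (−0.07 to 0.14), and its libraries overlapped between groups. Hprt, which salvages hypoxanthine and guanine, differed by −0.01 (−0.12 to 0.10). Aprt, which salvages adenine, had the highest values of the purine genes. It differed by 0.09 (−0.08 to 0.26), and its libraries overlapped as well. They held 333 and 315 ppm in low-MYC cells and 362 and 328 ppm in high-MYC cells.

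Pyrimidine genes had the highest median share difference of the classes, 0.09 over 6 genes, and 4 of the 6 had both high-MYC libraries above both low-MYC libraries, against 33.9% of all genes tested. Ctps, the main CTP synthase, which aminates UTP, was at 2.37 and 2.46 normalized FPK in low-MYC cells and at 5.96 and 6.38 in high-MYC cells. Its share was 51.2 and 51.0 ppm, then 57.9 and 58.5 ppm. That is a difference of 13.9%, or 0.18 on the log2 scale (SE 0.03, adjusted p = 0.0314, limma with Benjamini-Hochberg adjustment), larger than the spread between libraries of a group. Ctps2, its paralog with lower values, took 2.31 and 2.30 ppm and then 2.63 and 2.61 ppm, a log2 difference of 0.13 (adjusted p = 0.125). Cad, which holds the opening activities of the pathway, took 51.6 and 49.1 ppm in low-MYC libraries and 55.7 and 51.9 ppm in high-MYC libraries, so that the groups nearly touched, and its difference was 0.09 (95% interval −0.04 to 0.23). Umps, which completes UMP, differed by 0.08 (−0.001 to 0.16). Dhodh, the mitochondrial dehydrogenase of the pathway, and Cmpk1, the UMP and CMP kinase, overlapped between groups and differed by −0.03 (−0.23 to 0.18) and 0.03 (−0.07 to 0.13).

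Nme1 and Nme2, the kinases that phosphorylate nucleoside diphosphates, had shares that overlapped between the groups. Nme2 took 457 and 459 ppm in low-MYC libraries and 501 and 457 ppm in high-MYC libraries, and Nme1 83.9 and 87.1 ppm and then 84.4 and 84.7 ppm. Their genes are neighbours on chromosome 11, separated by 719 bases on the minus strand, and the annotated readthrough gene Gm20390 spans both. It was itself listed at 3.30, 3.45, 6.98 and 7.45 normalized FPK in the order low-MYC 1, low-MYC 2, high-MYC 1 and high-MYC 2. The quantification divides reads among such overlapping transcripts, which leaves the levels of all 3 uncertain.

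The 3 enzymes of serine synthesis took smaller shares in both high-MYC libraries, although all were higher per cell. Psat1, the phosphoserine aminotransferase, was at 2.28 and 2.44 normalized FPK in low-MYC cells and at 4.24 and 4.55 in high-MYC cells, so that the means had a ratio of 1.86 where the totals had one of 2.24. Its share was 49.2 and 50.6 ppm, then 41.2 and 41.7 ppm, a difference of −16.9%. On the log2 scale this was −0.26 (SE 0.03, 95% interval −0.35 to −0.18, adjusted p = 0.0193, limma with Benjamini-Hochberg adjustment), the lowest of the 32. Psph, the phosphatase that releases serine, took 8.30 and 8.10 ppm and then 7.07 and 6.79 ppm, a difference of −15.5% or −0.22 on the log2 scale (SE 0.04, adjusted p = 0.0424). Phgdh, which opens the branch from glycolysis, took 80.7 and 78.6 ppm and then 76.9 and 73.8 ppm, and its interval of −0.18 to 0.02 included 0. All 3 had both high-MYC libraries below both low-MYC libraries, as 28.4% of all genes tested did. Together they took 0.0138% and 0.0137% of the low-MYC totals and 0.0125% and 0.0122% of the high-MYC totals, a difference of −10.2%.

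The folate enzymes of the mitochondria and of the cytosol each held values on both sides of 0. Mthfd2, the mitochondrial methylene-tetrahydrofolate dehydrogenase, took 30.4 and 31.4 ppm in low-MYC libraries and 27.2 and 27.6 ppm in high-MYC libraries, a log2 difference of −0.17 (95% interval −0.26 to −0.08, adjusted p = 0.0518, limma with Benjamini-Hochberg adjustment). Shmt2, the mitochondrial serine hydroxymethyltransferase, took 156 and 146 ppm and then 143 and 134 ppm, a difference of −0.13 (−0.27 to 0.02). Mthfd1l, also mitochondrial, differed by 0.03 (−0.11 to 0.16). In the cytosol, Mthfd1, which interconverts the folate-bound carbon units, differed by 0.07 (−0.03 to 0.17) and Shmt1 by −0.01 (−0.16 to 0.15). The summed share of the 3 mitochondrial genes was 0.0188% and 0.0179% in low-MYC libraries against 0.0172% and 0.0163% in high-MYC libraries, and that of the 2 cytosolic genes 0.00138% and 0.0013% against 0.00139% and 0.00138%. Over all 8 serine and folate genes the median log2 share difference was −0.10, with 5 genes lower and 2 higher without overlap of the groups, against 28.4% and 33.9% of all genes tested. Per cell, 3 of 8 were at least 2-fold higher once 0.1 had been added, against 55.1% of all genes tested, and 5 of 8 by the ratio of plain group means, against 88.8%. Shmt1 and Mthfd1l, with ratios of 2.23 and 2.32, fell short in the former count only, being low enough for the added constant to shrink the difference.

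Beside the lower shares of Psat1 and Psph, lower shares were also seen among genes of the ATF4 response, a program that amino acid shortage and other stresses induce through the factor ATF4 and to which several serine synthesis genes are known to belong. Of 14 response genes tested, 10 had a lower share in high-MYC cells at an adjusted p under 0.05 and 0 were higher, against 3.89% and 7.77% of all genes (limma with Benjamini-Hochberg adjustment), and their median log2 share difference was −0.27. At an adjusted p under 0.01, 0 of the 14 passed. The list of response genes, too, was drawn up with earlier results of these data known. Atf4 itself stood at 35.6 and 35.7 normalized FPK in low-MYC libraries and at 61.0 and 65.9 in high-MYC libraries, and Asns, asparagine synthetase, at 2.92 and 3.15 and then 5.30 and 5.76. Their log2 share differences were −0.33 (adjusted p = 0.0139) and −0.29 (adjusted p = 0.0187). Of 5 other stress genes, Hmox1, Sqstm1 and the near-identical copies Hspa1a and Hspa1b had lower shares at an adjusted p under 0.01, against 0.531% of all genes tested. The median over the 5 was −1.44. Both groups had received the proteasome inhibitor. The part of these genes, and that of the macrophage markers that were higher in high-MYC cells, in the share differences of Psat1, Psph and the other serine and folate genes was not tested.

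The polyamine enzymes had share differences on both sides of 0. Odc1, ornithine decarboxylase, the rate-limiting enzyme of the pathway, was at 15.1 and 16.5 normalized FPK in low-MYC cells and at 30.4 and 33.1 in high-MYC cells. Srm, which transfers the aminopropyl group that makes spermidine, was at 6.10 and 6.17 and then at 15.5 and 15.9. As shares Odc1 took 326 and 341 ppm in low-MYC libraries and 296 and 303 ppm in high-MYC libraries, and Srm 132 and 128 ppm and then 151 and 145 ppm. Neither gene's groups overlapped. Odc1 was lower, as were 28.4% of all genes tested, and Srm was higher, as were 33.9%. Odc1 differed by −0.15 (log2, SE 0.04, adjusted p = 0.074) and Srm by 0.19 (SE 0.04, adjusted p = 0.0488; limma with Benjamini-Hochberg adjustment). Sms, spermine synthase, took 5.67 and 5.65 ppm and then 5.06 and 5.51 ppm, a difference of −0.08 (95% interval −0.22 to 0.05).

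Summed by class, purine and pyrimidine genes took a larger share in both high-MYC libraries, and serine and folate genes and polyamine genes a smaller one. All 32 genes together took 0.251% and 0.249% of the low-MYC totals and 0.258% and 0.249% of the high-MYC totals, and the groups overlapped. Purine genes took 0.0986% and 0.0959% in low-MYC libraries and 0.104% and 0.09996% in high-MYC libraries, a difference of 4.67%. Their single log2 share differences were above 0 for 7 genes and below it for 6, with a median of 0.01. Pyrimidine genes took 0.0180% and 0.0177% and then 0.0194% and 0.0191%, a difference of 7.69%. Serine and folate genes took 0.0340% and 0.0329% and then 0.0311% and 0.0299%, a difference of −8.94%. Polyamine genes took 0.0463% and 0.0475% and then 0.0452% and 0.0454%, a difference of −3.43%. In these 4 classes the groups did not overlap, while the nucleoside diphosphate kinases overlapped, with 0.0541% and 0.0546% against 0.0585% and 0.0541%. Of all single genes tested, 33.9% were higher and 28.4% lower without overlap, so such a separation is common. With 2 libraries against 2 technical replicates no test was made of these sums. Each sum leans on a few genes, since Aprt made up 33.7% of the purine sum, Shmt2 45.3% of the serine and folate sum and Odc1 67.7% of the polyamine sum. The weight of each gene in a sum also depends on the length by which it was divided.

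**Figure D3:**
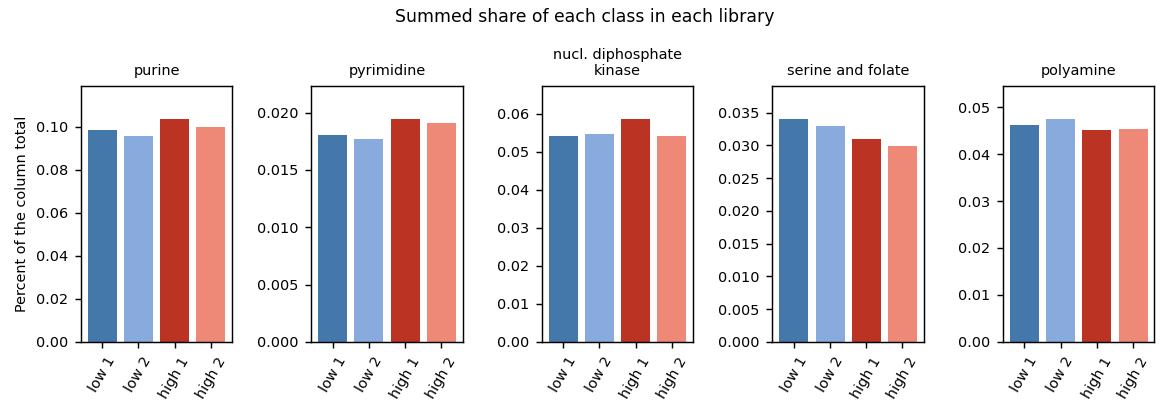
Summed share of the column total in percent (vertical, from 0, a separate scale for each class) of the purine, pyrimidine, nucleoside diphosphate kinase, serine and folate, and polyamine genes, each bar 1 library. Purine and pyrimidine bars are taller in both high-MYC libraries, with a difference of 4.67% and 7.69% between group means, and serine and folate bars are shorter, with −8.94%.

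The ratio of levels between paralogs was also compared within each library. The size of such a ratio depends on the lengths used for the 2 genes, but its change between groups does not. Impdh2 stood at 12.9 and 13.7 times Impdh1 in low-MYC libraries and at 12.6 and 12.8 times in high-MYC libraries. Ctps stood at 22.1 and 22.2 times Ctps2 and then at 22.1 and 22.4 times. For Prps1 over Prps2 the ratio was 1.82 and 1.78 in low-MYC libraries and 1.592 and 1.598 in high-MYC libraries, and for Shmt2 over Shmt1 it was 32.7 and 33.3 and then 30.2 and 30.4. Mitochondrial Mthfd2 stood at 21.1 and 22.1 times Mthfd1l in low-MYC cells and at 18.1 and 19.1 times in high-MYC cells. Nme2 stood at 5.45 and 5.27 times Nme1 in low-MYC libraries and at 5.94 and 5.395 times in high-MYC libraries. These ratios did not overlap between groups, except those of Ctps to Ctps2 and of Nme2 to Nme1. How often the ratios of other gene pairs do so was not tested.

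The other genes of the same pathways were read on both scales as well. Of 98 listed, 84 passed the minimum mean, all 84 were higher per cell at an adjusted p under 0.01 against 97.1% of all genes tested, and 54 were at least 2-fold higher against 55.1%. Of those tested, 2 purine, 2 serine and folate and 1 polyamine gene had a low-MYC mean under 0.1. They passed only through their high-MYC values, so the filter favoured their place among the higher genes. On the share scale 0 passed in either direction at an adjusted p under 0.01 (limma, Benjamini-Hochberg adjusted), 23 higher and 8 lower reached an unadjusted p under 0.05, against 18.7% and 12.9% of all genes tested. At an adjusted p under 0.05 10 were higher and 3 lower, against 7.77% and 3.89%, and the median log2 difference was 0.04. The 10 include Adssl1, which passed the minimum mean only through its high-MYC values. By class, the other genes repeated the side of the members for pyrimidine and purine genes only. The 19 other pyrimidine genes tested had a median of 0.08, where the members had 0.09. The listed ones took 749 and 721 ppm in low-MYC libraries and 841 and 847 ppm in high-MYC libraries. The 21 other purine genes tested had a median of 0.03, where the members had 0.01. The 23 other serine and folate genes tested had a median of 0.02, where the members had −0.10, and the listed ones took 559 and 555 ppm in low-MYC libraries and 554 and 570 ppm in high-MYC libraries. The 22 other polyamine genes tested had a median of 0.06, where the members had −0.08, and the listed ones took 2451 and 2424 ppm and then 2541 and 2514 ppm.

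Of the 19 other pyrimidine genes tested, 4 were higher and 0 lower at an adjusted p under 0.05, against 7.77% and 3.89% of all genes tested. The 4 were Rrm2, Nme3, Dtymk and Upp1, of which the last 3 were chosen after their values were seen. Rrm2, the regulated subunit of ribonucleotide reductase, was at 15.6 and 15.8 normalized FPK in low-MYC libraries and at 42.2 and 45.9 in high-MYC libraries, a log2 share difference of 0.32 (adjusted p = 0.0146, limma with Benjamini-Hochberg adjustment). Thymidine kinase Tk1 differed by 0.30 (adjusted p = 0.061) and thymidylate synthase Tyms by 0.18 (adjusted p = 0.0689), while the reductase subunits Rrm1 and Rrm2b differed by −0.001 and 0.001. Nme3, a nucleoside diphosphate kinase, had the largest difference of the 84, 0.54 (adjusted p = 0.0163). Proliferation genes lay on the same side, with a median of 0.20 over 15 genes, 6 of them higher at an adjusted p under 0.05, Pcna included (0.18, adjusted p = 0.0307) and Mki67 not (0.20, adjusted p = 0.0749). The part of the proliferation genes in the differences of the nucleotide genes was not tested.

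Around folate and methionine, Aldh1l2, the mitochondrial enzyme that oxidizes formyl-tetrahydrofolate, had the lowest value, with 0.288 and 0.311 normalized FPK in low-MYC libraries and 0.454 and 0.492 in high-MYC libraries and a log2 share difference of −0.43 (adjusted p = 0.0109, limma with Benjamini-Hochberg adjustment). The folate carrier Slc19a1 differed by −0.06, Mat2a, which makes S-adenosylmethionine, by 0.02, and Ahcy, which clears its product, by 0.02. None of these 3 reached an adjusted p under 0.05. In the polyamine pathway Amd1, which supplies the aminopropyl donor, differed by 0.05, the catabolic genes Sat1 and Smox by 0.01 and 0.14, antizyme Oaz1 by 0.12, the antizyme inhibitor Azin1 by −0.01 and Mtap, which salvages methylthioadenosine, by 0.07. None of these 6 reached an adjusted p under 0.05, while Oat, ornithine aminotransferase, and the antizyme Oaz2, chosen after their values were seen, did, with differences of 0.24 (adjusted p = 0.0189) and 0.18 (adjusted p = 0.0359; limma with Benjamini-Hochberg adjustment). Of the remaining enzymes, guanylate kinase Guk1 differed by 0.07, purine nucleoside phosphorylase Pnp by −0.04 and uridine kinase Uck2 by −0.08.

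**Figure D4:**
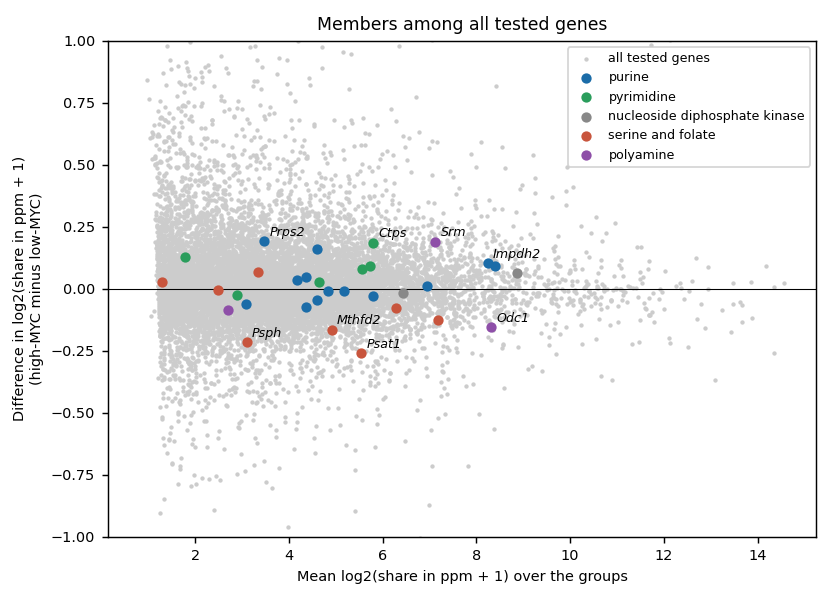
Difference in log2(share in ppm + 1) between high-MYC and low-MYC cells (vertical) against the mean of log2(share in ppm + 1) (horizontal) for all genes tested (grey) and the 32 genes (coloured by class); 114 genes outside −1 to 1 are not drawn. The 32 genes lie within the bulk of genes of like level, between −0.26 (Psat1) and 0.19 (Prps2).

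Accessible chromatin was counted as TACh-seq reads within 500 bases of the annotated start, over 4881417 reads that carry no library name. Of the 32 genes 27 (84.4%) had reads there, against 76.2% of 11854 genes tested, and the median was 110.5 reads against 95. Paics and Ppat had the most, 407 and 390 reads, more than 98.5% and 98.2% of the genes tested. They are transcribed in opposite directions on chromosome 5, and their annotated bodies overlap by 272 bases at the starts, so that both counts draw largely on the same reads. Atic had 236, Dhodh 223, Mthfd2 213 and Psph 212 reads, and Shmt1, the lowest gene above 0, had 58. No reads were listed at Pfas, Prps1, Ctps2, Psat1 and Sms. Of these, Prps1, Ctps2 and Sms lie on the X chromosome, where 47.2% of the genes tested had reads against 77.2% elsewhere. For Psat1 the zero depended on the start used, since 170 reads lay at the RefSeq start, a choice made after the counts were seen. With RefSeq starts 26 of 29 genes (89.7%) had reads, against 88.7% of 8390 genes tested.

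**Figure D5:**
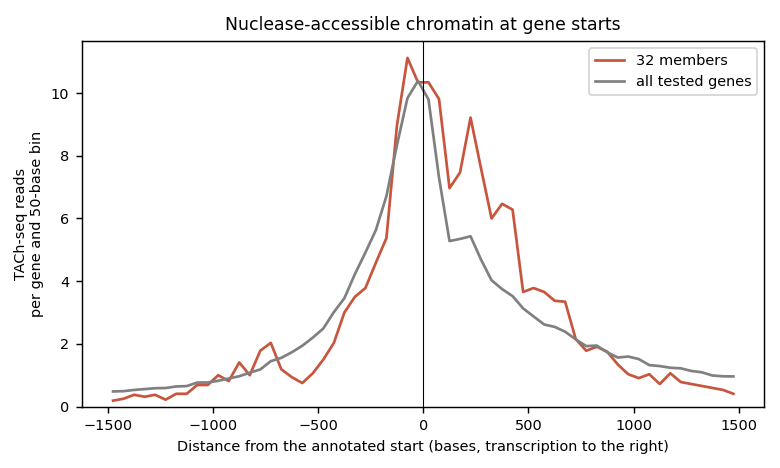
TACh-seq reads per gene in bins of 50 bases (vertical) by distance from the annotated start (horizontal, transcription to the right) for the 32 genes and for all genes tested. Both lines are highest close to the start, where the 32 genes reached 11.1 reads per gene in their highest bin.

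The E-box CACGTG, the hexamer MYC is known to bind with MAX, was searched on both strands from 250 bases before to 50 after each start of the RefSeq promoter table (GRCm38.p6); it reads the same on both strands. It was found at 5 of the 29 genes listed there (17.2%), against 8.09% of 27025 genes in the table. Srm, Pfas and Dhodh were not in the table. The windows of 30 bases around each match are shown because they place the known binding sequence of the sorted factor within the pathway; capitals mark the E-box.
Atic, chr1:71557137-71557166, plus strand: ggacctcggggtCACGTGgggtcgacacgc
Paics, chr5:76951087-76951116, plus strand: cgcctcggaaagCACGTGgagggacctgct
Impdh2, chr9:108560314-108560343, plus strand: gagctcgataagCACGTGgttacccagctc
Nme1, chr11:93968273-93968302, minus strand: gctgcggggaacCACGTGaggccggggagc
Nme1, chr11:93968037-93968066, minus strand: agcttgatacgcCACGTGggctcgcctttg
Sms, chrX:157492466-157492495, minus strand: cccagcggggttCACGTGcatttaaagaaa
The matches begin 7 bases before the start in Atic, 203 in Paics, 110 in Impdh2 and 196 in Sms, and 18 and 29 before the alternative starts of Nme1. These 5 genes had log2 share differences of −0.03, 0.01, 0.10, −0.02 and −0.08 in the order Atic, Paics, Impdh2, Nme1 and Sms, on both sides of 0, while Ctps and Psat1 held no match in this window. A match is only a sequence, and binding was not measured here at these genes.

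The response element TGATGNAAN, bound by ATF4 with C/EBP factors, was searched on both strands of the same promoters, a choice made after the share differences were seen. It was found at 1 of 29 genes (3.45%), Prps1, whose window held no E-box. The share over all 27025 genes was 4.5%, again not limited to genes tested. Of the 32 genes only Adsl lies on chromosome 15, the chromosome of the FUBP1 peak list. None of its 166 peaks overlapped Adsl (chr15:80948490-80970946, mm10), and the nearest, at chr15:81162201-81166400, was 191255 bases away, while 12.2% of 459 genes tested on that chromosome held a peak.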

How the data were processed

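Per the methods, the authors trimmed RNA-seq reads of low quality at the end, aligned them with TopHat to mouse transcripts (mm10), assigned them with the Partek E/M algorithm, and divided by transcript length and by an ERCC spike-in score; the deposited values are this signal, relative to cell number. Versions are not given in the sources used here. The TACh-seq table lists reads aligned with Bowtie2 with a mapping score that the authors deposited (not filtered on here), and the FUBP1 peaks were called with SICER, both per the labels and methods. TACh-seq reads carry no library name and their libraries are not known, so WT and KOKD MEFs were not compared.

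Here log2(normalized FPK + 0.1), and log2(share + 1) with the share of the column total in parts per 1000000 (ppm), were compared between groups with limma 3.58.1 (lmFit, eBayes with trend) in R 4.3.3 over 11870 genes with a mean of at least 0.1, with Benjamini-Hochberg adjustment. Calls were made at an adjusted p under 0.01, and at least 2-fold on the former scale; adding a constant understates the change of low genes. Depth is unknown, apart from the relative depth read from the steps between low values. The procedure was tested on simulated data. The members and lists were chosen with earlier results of these data known. The text names all 32 members, a listed set of other pathway genes (1 of which is not reported here), Atf4, Asns, Mki67, Pcna, Myc, and the genes of the context lists past 0.01 on the share scale. Gene positions matched GENCODE M21 for 19464 genes once ends were moved by 1 base. Other steps used Python 3.11.15, pandas 2.3.3, numpy 2.4.6 and matplotlib 3.10.9. Results were recomputed with another pseudocount, minimum mean, scaling, variance prior, threshold or replicate block, without each library, and with another window and start for TACh-seq.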

Additional observations from a re-analysis of the deposited data

How the results depend on the processing

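On the spike-in scale 23 genes were at least 2-fold higher, but 6 with a pseudocount of 1 and 0 once each library was given the same median; the other alternatives gave counts within 1.5 times, and all 32 genes were past the threshold without any 1 library, in fits that assume the lone library to vary like the other group and so say little of stability. The rescaling takes out the shared shift by construction, and under it 17 genes turned negative: Ppat −0.073, Gart −0.023, Paics −0.0027, Adsl −0.061, Atic −0.045, Gmps −0.086, Hprt −0.025, Dhodh −0.038, Nme1 −0.031, Phgdh −0.094, Psat1 −0.27, Psph −0.22, Shmt1 −0.017, Shmt2 −0.14, Mthfd2 −0.18, Odc1 −0.17 and Sms −0.091 (log2); the other 15 were no longer past it. On the share scale 0 genes were higher, but 2 at an adjusted p under 0.05, and 0 were lower, but 2 at that threshold and 1 with a minimum mean of 1, where 23 members were tested. The median share difference was 0.01 for purine genes under every setting tried to within the spread of the libraries. For pyrimidine genes it was 0.085, with 0.051 at the larger pseudocount, 0.071 at the same median and 0.060 to 0.112 without any 1 library. For serine and folate genes it was −0.10, with −0.088 at the larger pseudocount, −0.147 at the minimum mean of 1, −0.12 at the same median and −0.133 to −0.067 without any 1 library. For polyamine genes it was −0.08, with −0.035 at the larger pseudocount, 0.017 at the minimum mean of 1, where only Odc1 and Srm remained, and −0.136 to −0.033 without any 1 library. With the replicate number as a block, the counts were 23, 0 and 0 as without it; deviations of samples with the same number correlated at 0.081 over 11870 genes, so the numbers were not taken to pair the samples. With 2 technical replicates per group, a difference of a few percent in share could not be set against biological spread. The causes of the other changes were not tested.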

Other observations

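Of the macrophage markers, Lyz2, Cd68, Csf1r, Tyrobp, Fcer1g, C1qa, C1qb, C1qc, Mpeg1, Cd53, Laptm5, Fcgr3 and Cd14 passed the minimum mean, all but Cd68 and Cd14 only through their high-MYC values. Cd68 stood at 0.549 and 0.661 normalized FPK in low-MYC libraries and at 4.27 and 4.72 in high-MYC libraries. Tyrobp and C1qa were listed at 0 in low-MYC replicate 1 and at 0.00342 and 0.00302 normalized FPK in low-MYC replicate 2, and the low-MYC mean was under 0.1 for 23 of the 25 markers. Of the 15 fibroblast markers, Pdgfra, Dcn and Lum had higher shares at an adjusted p under 0.01 (limma, Benjamini-Hochberg adjusted), against 1.78% of all genes tested. Their log2 differences were 0.37, 0.93 and 1.36, and the median of the 15 was 0.28.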
